A study of Gallus gallus with 12 samples.

Results

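Heat stress was compared with temperature recovery in the hypothalamus of broiler chickens, to see which gene families differed between birds still under heat and birds that had been cooled for a day. The 4 heat stress arrays (HS) and the 4 temperature recovery arrays (TR), 8 of the 12 arrays in the series, were taken by their titles, and the 4 control arrays (CL) serve here as the level of birds that were never heated. All 12 birds were female Anak_40 broilers, full sibs or sibs through 1 parent, 56 d of age and reared at 25°C, and RNA of each bird was labelled with cyanine 3 and read on a 1-colour array of its own. The HS birds spent 24 h at 34°C and were sampled at the end of the heat. TR birds had the same 24 h at 34°C and a further 24 h at 25°C before sampling, and CL birds stayed at 25°C. A probe belonged to the comparison when it was above background on all 4 HS arrays or all 4 TR arrays, which held for 34303 of 43603 probes. With the brightest such probe standing for each named gene, 4267 of 4820 named genes were measured.

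The hypothalamus holds the preoptic neurons that sense brain temperature and drive panting, vessel dilation and reduced feed intake, and its neurons release peptides such as vasotocin, thyrotropin-releasing hormone and somatostatin. Dopamine made by hypothalamic neurons controls pituitary hormones. Chaperones of the heat shock families refold proteins that heat has damaged and are the best known targets of heat in cells. The sample labels were not free of conflict, since the titles and the protocol give female hypothalamus while the tissue, sex and infection fields describe male spleen. HINTW, which lies on the W chromosome that hens carry, had a log2 signal between 17.47 and 17.87 on the 8 HS and TR arrays. The glial genes MBP and GFAP were at 17.41 or above on the same arrays. NKX2-1, a transcription factor of the hypothalamus, was dim but above background on all 8. Each group was on a slide of its own, so slide and group cannot be told apart. HS and TR arrays were scanned on the same day, and CL arrays on another. Between 33505 and 36852 spots an array were above background, and the number of arrays limits the precision. The tissue was bulk, so fewer cells of a type and less RNA in each cell cannot be told apart.

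Of the 4267 genes, 78 (1.83%) were differentially expressed (DE) in HS vs. TR at a fold change over 1.5, a p under 0.05 and an FDR under 0.15. Higher in HS were 57 genes (1.34% of all tested) and lower 21 (0.492%). Among these named genes 14 were over 4-fold higher and none over 4-fold lower. The median log2 change over all 4267 genes was -0.01, a value that quantile normalization holds near 0. The 4 HS arrays and the 4 TR arrays did not overlap in 67 of the 78 DE genes, against 11.9% of all genes measured. The genes were called on these same arrays, so the lack of overlap adds no support to the calls. At FDR under 0.05, 16 genes passed. HS vs. CL, which shares the HS arrays, gave 118 DE genes (2.77%), and TR vs. CL, which shares the TR arrays, gave 7 (0.164%). Of 34293 tested member probes 625 were DE (1.82%), 404 higher (1.18%) and 221 lower (0.644%). Over all 34920 probes tested 647 were DE (1.85%), 407 higher and 240 lower, and scaling by the 75th percentile of each array in place of quantile normalization gave 589 higher and 125 lower. DE genes differed in how often their calls were lost with an array left out, and 17 of the 78 calls held whichever of the 12 arrays was left out.

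The distance of TR from CL separates these 78 genes into 3 kinds. In 24 genes (16 higher in HS, 8 lower) the 95% interval of TR minus CL lay wholly inside a 1.5-fold band around 0, as it did in 73.3% of all genes. In 15 genes the interval excluded 0 (6.75% of all genes), and 2 of these, DRD2 and CD200, also lay inside the band. In the remaining 41 genes the interval held 0 but reached beyond 1.5-fold, so that neither a return to the CL level nor a distance from it was resolved. The 24 genes inside the band had a median change of 0.66 in HS vs. TR without regard to sign, and the 41 unresolved genes one of 1.49. TR arrays enter both comparisons, so a bird that stands apart in TR moves both values, and these counts describe the genes without testing them.

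**Figure D1:**
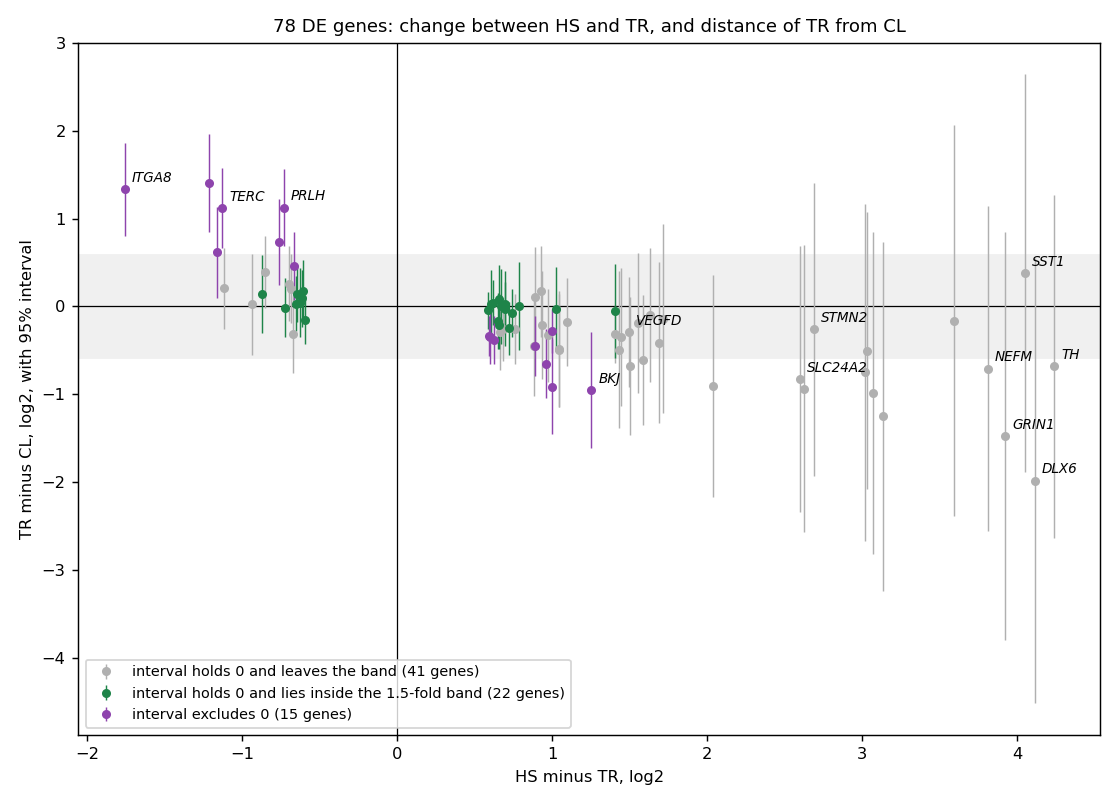
Each point is 1 of the 78 DE genes, with the log2 change of HS minus TR across and the log2 difference of TR minus CL upwards, bars giving its 95% interval in limma and the grey band a 1.5-fold distance either way. The genes with the largest changes, at the right, have intervals that span several log2 units, while ITGA8, TERC and PRLH lie above 0 at the upper left.

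Of 8 genes of dopamine and noradrenaline synthesis, breakdown, transport and reception, 3 were higher in HS, against 1.34% of all genes. None was lower and 5 were not DE, with a list median of 0.65 against -0.01 over all genes. TH and GCH1 met the rule on background only through the HS arrays, where they were high, so the count leans on that rule. The paper had already named TH, GCH1 and DRD2 from these same arrays, and the list was drawn up with earlier results known. The count therefore describes the list and adds no support. TH, tyrosine hydroxylase, the rate-limiting enzyme of catecholamine synthesis, read 5.04, 6.30, 7.24 and 9.54 on the HS arrays, against 2.41, 3.99, 2.40 and 2.37 on the TR arrays. All 4 HS arrays were above background for TH and none of the 4 TR arrays was, so its change is a bound. By the group means TH was at least 5.31-fold higher in HS. The adjusted p of 0.0627 belongs not to this bound but to the limma change of 4.24, which takes in the TR values not above background. On CL arrays TH was above background only on CL1. The call was lost without TR4 (log2 change 4.10) and with normexp background correction. Of the other measured markers of midbrain dopamine neurons, GFRA1, LMX1B, PITX3 and RET, none was DE, with log2 changes between -0.29 and 0.10. Only 5 genes of that list were measured, TH included, and SLC6A3, SLC18A2 and DDC were among those that were not.

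GCH1 makes the first intermediate of tetrahydrobiopterin, the cofactor that TH requires. Its log2 signal was 6.02, 6.97, 6.24 and 6.58 in HS, against 5.40, 5.48, 5.86 and 4.98 in TR and 5.34 to 5.70 in CL. All HS arrays lay above all TR arrays, by a log2 change of 1.02 ± 0.22 (SE; adjusted p = 0.0638), and TR differed from CL by -0.03 (95% interval -0.51 to 0.45). The TR4 value of GCH1 was not above background, so the gene entered the comparison through its HS arrays. The call was lost without TR4 (0.87), with normexp correction and by the methods' t-test. DRD2, the D2 dopamine receptor, varied far less within the groups. It read 6.92, 6.91, 6.88 and 7.12 in HS, against 6.12, 5.89, 5.76 and 6.08 in TR and 6.16, 6.19, 6.09 and 6.50 in CL. Its change of 1.0 ± 0.11 (SE; adjusted p = 0.00383) held without any 1 array and under every alternative setting tried. TR minus CL was -0.27 for DRD2 (interval -0.52 to -0.02), with overlapping arrays, and was not DE in TR vs. CL (adjusted p = 0.614). The remaining members were not DE. DRD4 changed by 1.13 (adjusted p = 0.24) with overlapping arrays, the cofactor recycling enzyme QDPR by 0.30 and the noradrenaline transporter SLC6A2 by 0.16. The D1 receptor DRD1 changed by -0.04 and MAOA, which breaks amines down, by -0.41.

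Among the 14 genes over 4-fold higher in HS were TH, SST1, GRIN1, NEFM, NEFL, GAD1, STMN2, NPFFR1, SLC24A2, DLX5, DLX6, SOUL and LOC395991, many of them known from neurons. In TH, GRIN1, NPFFR1 and DLX6 at most 2 of the 4 TR arrays were above background, so their fitted differences lean on values not above background. They shared one pattern over the arrays. HS3 and HS4 were the 2 highest HS arrays in 13 of the 14, HS1 was the lowest HS array in 11, TR2 was the highest TR array in 10 and CL1 the highest CL array in 13. HS3 and HS4 were the 2 highest HS arrays in 33 of all 57 genes higher in HS and in 3 of the 21 lower, together 36 of the 78. In the 14 genes the spread that this pattern gives is seen in standard errors of up to 1.15. It is also seen in a median width of 3.77 log2 units for the interval of TR minus CL. TR means were below CL means in 13 of the 14, and no interval of the 14 lay inside the 1.5-fold band.

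NEFM and NEFL encode the medium and light neurofilament subunits that set axon calibre. NEFM read 9.06, 9.87, 11.95 and 12.47 in HS, against 6.80, 8.31, 6.91 and 6.08 in TR and 9.48, 6.43, 7.04 and 7.99 in CL. The HS arrays all lay above the TR arrays, but HS1 lay below CL1. Its log2 change was 3.81 ± 0.84 (SE; adjusted p = 0.0717), and that of NEFL was 3.03 ± 0.72 (adjusted p = 0.0844), also without overlap of HS and TR. STMN2, a regulator of microtubules in growing axons, averaged 13.55 ± 1.77 in HS, against 10.86 ± 0.39 in TR and 11.13 ± 1.0 in CL (SD, n = 4 each), with a change of 2.69. Its HS arrays ran from 11.76 to 15.71 and its TR arrays from 10.42 to 11.31, without overlap.

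GAD1, which makes GABA, read 9.33, 10.41, 12.56 and 14.13 in HS, against 8.52, 8.02, 8.37 and 7.14 in TR and 10.28, 6.38, 8.41 and 7.62 in CL. Every HS array was above every TR array, and the change was 3.59 ± 1.01 (SE; adjusted p = 0.128). GRIN1, the obligatory subunit of NMDA receptors, read 5.90, 6.35, 8.47 and 10.19 in HS, against 3.22, 5.30, 4.11 and 2.58 in TR, and only 1 of the 4 TR arrays was above background. DLX5 and DLX6, homeobox genes of GABA neurons in the forebrain, changed by 2.63 and 4.11, with TR2 overlapping the HS arrays in both and TR3 and TR4 not above background for DLX6. SLC24A2, an exchanger of sodium for calcium and potassium, changed by 2.60 with the same overlap of TR2, and NPFFR1, a receptor of RFamide peptides, by 3.07 with 2 of the 4 TR arrays above background. SOUL, a heme-binding protein, changed by 3.02 without overlap.

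None of these 14 calls held with each array left out, while 17 of all 78 did. Of the 14, none held without TR4, 1 held without HS3, 1 without HS4, 2 without TR1, 3 without TR3, 7 without TR2, 13 without HS2 and all 14 without HS1. Of all 78, 29 held without TR4, 33 without HS3, 30 without HS4 and 31 without TR1. A further 34 held without TR3, 36 without TR2, 52 without HS2 and 72 without HS1. A lost call need not mean a smaller change, as GAD1 was lost without TR1 at 3.76, against 3.59 with all arrays. TH was the gene that held without HS3 and without HS4. The changes themselves stayed positive with each array left out, from 2.76 to 4.35 for GAD1, from 3.13 to 4.53 for GRIN1, from 3.27 to 4.40 for NEFM and from 1.97 to 3.29 for STMN2.

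**Figure D2:**
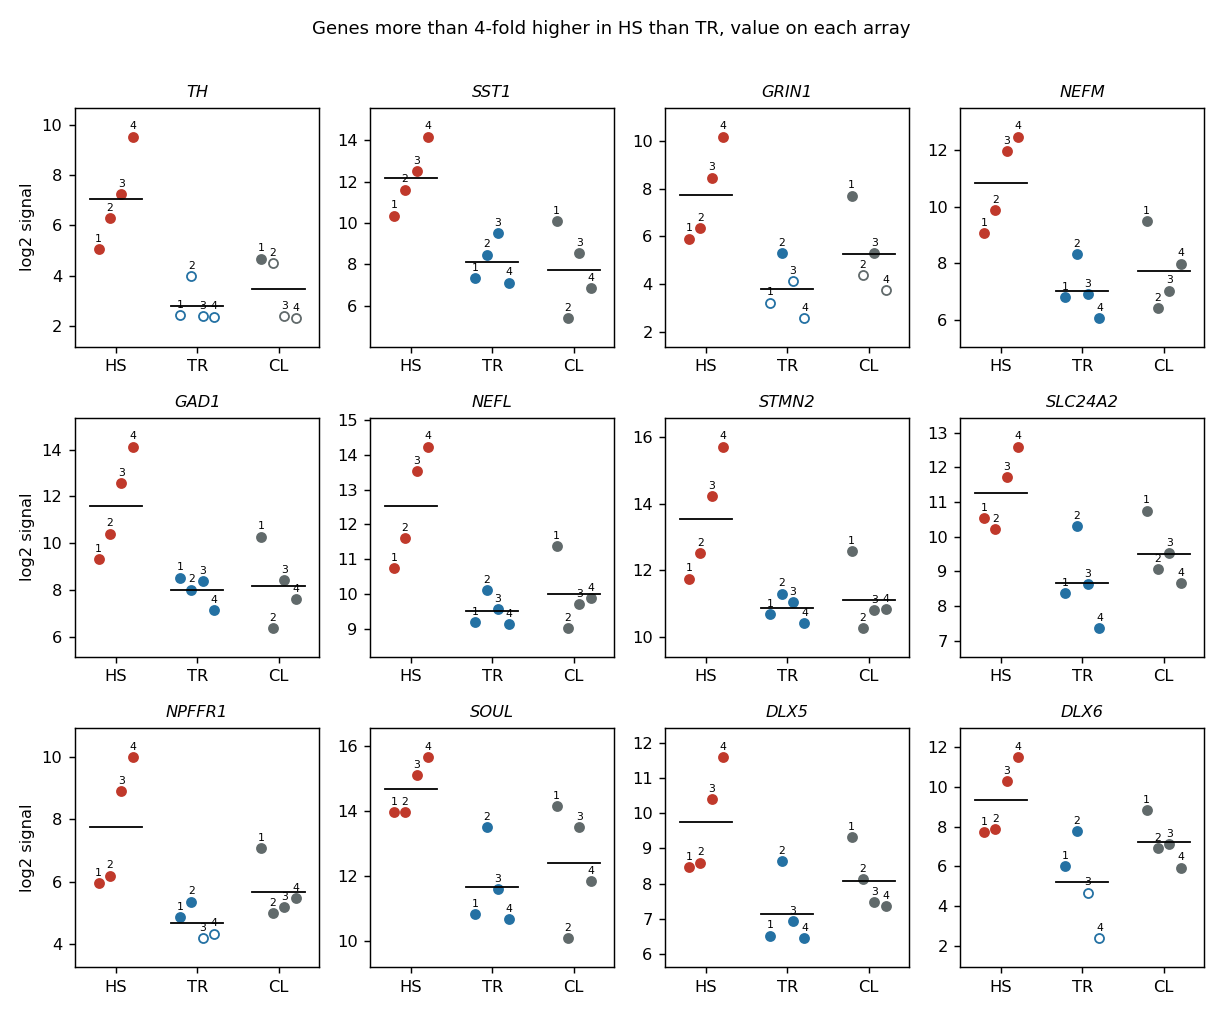
Log2 signal of 12 of the 14 genes over 4-fold higher in HS, on each array of the HS, TR and CL groups, with bird numbers beside the points, bars at the group means and open points for values not above background. HS3 and HS4 lead the HS group and CL1 the CL group in all 12 panels, and TR2 leads the TR group in 10.

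Among peptide systems, somatostatin differed at both the ligand and a receptor. SST1, the somatostatin gene, read 10.36, 11.61, 12.52 and 14.17 in HS, against 7.34, 8.47, 9.52 and 7.12 in TR and 10.10, 5.43, 8.55 and 6.85 in CL. All HS arrays were above all TR arrays and above all CL arrays, with a change of 4.05 ± 1.03 (SE; adjusted p = 0.101), and all 3 of its probes were DE. The call was lost without HS3 (3.94), HS4 (3.38), TR1 (3.79), TR2 (4.16) or TR4 (3.72). SSTR2, a somatostatin receptor, was a steadier call. It read 6.88, 7.52, 7.18 and 7.31 in HS, against 6.51, 6.36, 6.30 and 5.86 in TR and 7.08, 7.11, 6.56 and 6.90 in CL, a change of 0.96 ± 0.18 (SE; adjusted p = 0.0412) that held with each array left out and under all other settings. HS and CL arrays overlapped for SSTR2, and the TR arrays lay below both groups. In the list of somatostatin, PACAP and VIP genes to which SSTR2 belongs, 1 of 6 was higher, against 1.34% of all genes. None was lower and 5 were not DE, with a median of 1.06. ADCYAP1, the PACAP gene, changed by 2.61 (adjusted p = 0.183) and the receptor VIPR2 by 2.08 (adjusted p = 0.216), neither DE.

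AVP, which encodes vasotocin, the avian antidiuretic hormone, showed how far single birds could differ. It read 16.38, 17.70, 18.38 and 18.71 in HS, against 13.21, 16.97, 13.42 and 10.96 in TR and 17.68, 7.69, 13.60 and 10.42 in CL. TR2 and CL1 lay inside the HS range and the other TR and CL arrays below it. Its difference of 4.15 in HS vs. TR was not DE (adjusted p = 0.294). Among 9 appetite peptides and receptors, 1 was lower and 8 were not DE, with a median of 0.75, and NPY changed by 1.34 (adjusted p = 0.431) and HCRT by 0.58. The 1 lower gene was PRLH, described with the genes whose TR and CL levels differed. In the thyroid axis 1 of 9 genes was lower, the retinoid receptor RXRG (-0.85, adjusted p = 0.0698, lost without TR4 at -0.73), and 8 were not DE, TRH among them at 0.26. RXRG was not above background on HS3 or HS4 and met the rule on background only through the TR arrays. No gene of the corticotropin and glucocorticoid list (6 members, median -0.05) or of the growth hormone, insulin and IGF list (12 members, median -0.02) was DE. The reproductive list of 11 held 1 higher gene, NPFFR1, and 1 lower, HSD17B1, which converts estrone to estradiol. NPFFR1 met the rule on background only through the HS arrays. Beside the counts of this paragraph stand shares of 1.34% higher and 0.492% lower over all genes. GNRH1 changed by 1.10 (adjusted p = 0.18).

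Other lists of neuronal genes showed few calls and wide ranges. Of 7 GABA and glycine genes 1 was higher, GAD1, with a list median of 0.76. The glutamate receptor list had 1 of 7 higher, GRIN1, and a median of 0.07. GRIN1 met the rule on background only through the HS arrays. Beside the counts of this paragraph stands a share of 1.34% higher over all genes. The muscarinic receptor CHRM4 was the only call in a list of 23 receptors and related genes of acetylcholine, serotonin, adenosine and nucleotides, with no histamine receptor among them, at 0.93 (adjusted p = 0.101). Without HS3, HS4, TR1, TR2, TR3 or TR4, CHRM4 changed by 0.74 to 1.03 and was not DE. No gene was DE among 24 synaptic vesicle genes (median 0.15, 20 of 24 positive), 16 potassium channels (median 0.13) or 6 sodium and calcium channels (median 0.35). Over all genes 47.7% of the changes were positive. SYT1, the calcium sensor of vesicle release, had the largest change of the vesicle list at 2.33 (adjusted p = 0.182), with HS arrays from 9.0 to 12.83 and TR arrays from 7.91 to 8.93, without overlap. NPTX2, a secreted pentraxin of synapses, was the only DE gene of 12 immediate early genes at 1.71 (adjusted p = 0.134), a call lost without HS3 (1.77), HS4 (1.22), any of the 4 TR arrays (1.57 to 1.90), CL3 or CL4 (1.71 each). FOS (-0.10), EGR1 (-0.34) and JUN (-0.23) were not DE.

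The mean signal of some neuronal lists moved with the same birds, and that of others did not. For synapse adhesion and axon guidance genes it was 10.06, 9.94, 10.05 and 10.11 on the HS arrays, against 9.90 to 10.07 on the TR arrays. For GABA and glycine genes it was 9.22, 9.14, 10.22 and 10.91 on the HS arrays, against 8.87, 8.90, 8.66 and 8.78 on the TR arrays and 9.54, 8.29, 9.09 and 8.95 on the CL arrays. The list of transcription factors that mark brain regions had 3 of 29 genes higher in HS, against 1.34% of all genes. They were DLX5, DLX6 and HOXA4, and 26 were not DE. DLX6 met the rule on background only through the HS arrays, so the count leans on that rule. The mean of that list, which takes in the DLX6 values not above background, was between 8.52 and 9.22 in HS, against 8.14 to 8.50 in TR and 8.16 to 8.62 in CL. The gap between HS and TR leans on those DLX6 values. GAD1, DLX5 and DLX6 also belong to the 14 genes over 4-fold higher, so these list means add no support to the pattern of those genes. NKX2-1 (0.03) and SIX3 (-0.15), factors of the hypothalamus itself, were not DE. HOXA4 changed by 0.93 (adjusted p = 0.146) and was called without TR2 and without no other array (0.76 to 0.99). The part of regional make-up in the neuronal results was not tested.

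A second set of higher genes changed less but with little spread between birds. BLEC1, a C-type lectin gene, had the lowest adjusted p of all genes, and like the other genes of this paragraph it was picked once the values were known. It read 9.22, 9.22, 9.58 and 9.61 in HS, against 8.39, 7.97, 7.63 and 8.04 in TR and 8.36, 8.33, 8.31 and 8.29 in CL. The HS arrays lay above all others, by 1.40 ± 0.15 over TR (SE; adjusted p = 0.00254), and TR minus CL was -0.31 (interval -0.64 to 0.02). TPRA1, a membrane protein also named GPR175, read 6.68, 6.27, 7.25 and 7.27 in HS, against 5.39, 4.98, 5.82 and 5.68 in TR and 5.26 to 5.69 in CL. HS and TR did not overlap, with a change of 1.40 ± 0.24 (SE; adjusted p = 0.0322) and TR minus CL at -0.05 (-0.58 to 0.48). SGCB, beta-sarcoglycan of the dystrophin complex, was nearly constant within HS and TR, at 11.82 to 11.88 in HS, against 11.10 to 11.21 in TR, and spread more in CL, at 10.75 to 11.30 (change 0.69, adjusted p = 0.0254). Only 1 of its 3 probes had this sign, and the median over the 3 probes was -0.10, so the direction of SGCB depends on the probe.

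MEOX2, a homeobox gene of mesoderm and vessels, changed by 0.74 (adjusted p = 0.0301) and PRKCH, a protein kinase C, by 0.72 (adjusted p = 0.0469). NUP42, a nuclear pore protein, changed by 0.66 (adjusted p = 0.0423). These genes, NPPA and BSX too were picked with their values known. In MEOX2, PRKCH and NUP42 the HS arrays lay above the TR arrays, the interval of TR minus CL was inside the 1.5-fold band, and the call held with each array left out. MEOX2 and NUP42 were not called by the median over their probes. Further genes inside the band were NPPA, a natriuretic peptide (0.62, adjusted p = 0.0423, lost without HS3 at 0.56 or TR4 at 0.54), and BSX, a homeobox gene known from feeding neurons of the mouse hypothalamus (0.65, adjusted p = 0.0755, lost without HS1 at 0.54, TR3 at 0.57 or TR4 at 0.62). SLC11A1, a metal transporter of phagosomes, was also inside the band. It changed by 0.60 (adjusted p = 0.141) and was called without HS1 and not without any other HS or TR array or CL3 (0.53 to 0.66).

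**Figure D3:**
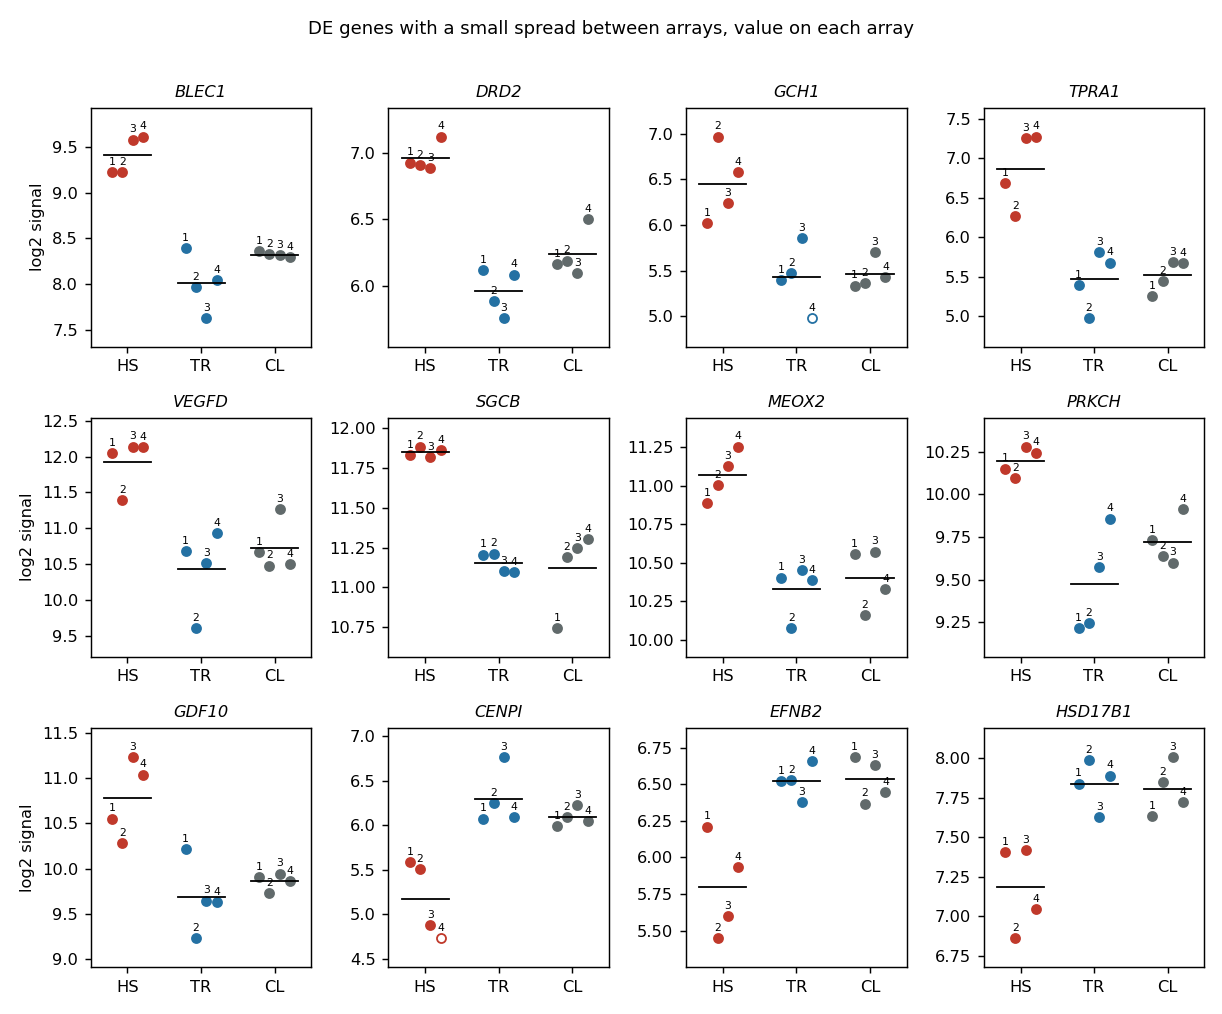
Log2 signal on each HS, TR and CL array of 12 DE genes with a small spread, drawn as in the plot of the large changes. For BLEC1, DRD2, GCH1 and TPRA1 the 4 HS arrays lie above all TR and CL arrays, and for CENPI, EFNB2 and HSD17B1 they lie below all TR arrays.

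In the cell cycle and DNA damage list 2 of 37 genes were lower in HS, against 0.492% of all genes. Both, CENPI and MCM5, met the rule on background only through the TR arrays, where they were high, since HS4 was not above background. The count therefore leans on that rule. The other 35 were not DE and none was higher. The list median was -0.11, and 8 of 37 changes were positive, against 47.7% over all genes. The mean signal of the list was 9.70, 9.65, 9.39 and 9.43 on the HS arrays, against 9.68 to 9.78 on the TR arrays. HS1 thus lay within the TR range. CENPI, a kinetochore protein, read 5.59, 5.51, 4.87 and 4.73 in HS, against 6.07, 6.25, 6.77 and 6.09 in TR and 5.99 to 6.22 in CL. All HS arrays were below all TR arrays, with 3 of the 4 above background (change -1.12 ± 0.21 SE, adjusted p = 0.0423, both probes DE). The call of CENPI held with each array left out but not with normexp correction or by the methods' t-test. MCM5, a subunit of the replicative helicase, changed by -0.59 (adjusted p = 0.0633), with TR minus CL inside the band. MCM5 was not DE without HS2, HS4, TR1, TR2 or TR4 (-0.58 to -0.50) or with 75th percentile scaling.

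EFNB2, an ephrin ligand of vessels and axons, was the only DE gene of 48 synapse adhesion and axon guidance genes, against 1.83% of all genes. It read 6.21, 5.45, 5.60 and 5.94 in HS, against 6.52, 6.53, 6.38 and 6.66 in TR and 6.37 to 6.69 in CL. The groups did not overlap (change -0.72 ± 0.15 SE, adjusted p = 0.0638), and TR minus CL was -0.01 (-0.35 to 0.32). HSD17B1 changed by -0.65 (adjusted p = 0.0677), with TR minus CL at 0.03 (-0.28 to 0.34). With 75th percentile scaling neither EFNB2 nor HSD17B1 was DE. Leaving out HS3 (-0.66) or TR4 (-0.68) ended the call of EFNB2, and leaving out HS2 (-0.55), HS4 (-0.61), TR2 (-0.60) or TR4 (-0.63) that of HSD17B1. LITAF, a regulator of cytokine genes in macrophages, changed by -0.94 (adjusted p = 0.126) without overlap, with TR minus CL at 0.02, and its call was lost without any HS or TR array but HS3 (-0.97 to -0.81) and without CL3 (-0.94). CRYBA4, a lens crystallin, was not above background on any HS array and is lower in HS by at least 1.31-fold, a bound under the 1.5-fold limit. Its call (adjusted p = 0.0796 in limma) rests on the fitted change, which takes in the HS values not above background. The call was lost without HS4, TR2 or TR3 (-0.86 to -0.79). CRYBA4 was picked once its values were known.

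In the list of vessel genes 1 of 21 was higher and 1 lower, against 1.34% and 0.492% of all genes. VEGFD, a growth factor of lymph and blood vessels, read 12.05, 11.40, 12.14 and 12.13 in HS, against 10.68, 9.61, 10.52 and 10.94 in TR and 10.67, 10.48, 11.26 and 10.50 in CL. Every HS array was above every TR and CL array, with a change of 1.49 ± 0.29 (SE; adjusted p = 0.0476), all 3 probes DE and the call kept under every setting tried. PDGFB, which recruits pericytes to vessels, was lower in HS (change -0.65, adjusted p = 0.079). Its arrays overlapped, and leaving out HS2 (-0.58), HS4 (-0.61), TR1 (-0.62), TR2 (-0.63) or TR3 (-0.56) ended the call. The other 19 genes of the list were not DE, and the list median was -0.01.

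Of 62 genes of the extracellular matrix and integrins, 2 were higher and 2 lower, against 1.34% and 0.492% of all genes. The other 58 were not DE, and the list median was -0.03. The symbol patterns of this list also take in LAMP and LAMTOR genes of lysosomes and ITGB1BP3, none of them DE. FMOD, a proteoglycan that binds collagen, read 13.89, 13.83, 13.59 and 14.39 in HS, against 11.85, 12.13, 12.28 and 13.44 in TR and 13.64, 12.28, 13.22 and 13.29 in CL. HS and TR did not overlap (change 1.50 ± 0.36 SE, adjusted p = 0.086), while CL1 lay within the HS range. FMOD was not DE without HS4 (1.35), TR1 (1.31), TR2 (1.40) or TR3 (1.45). HAPLN1, which links hyaluronan to proteoglycans, changed by 0.88 (adjusted p = 0.141) and COL4A6, a chain of basement membrane collagen, by -0.70 (adjusted p = 0.125). HAPLN1 was called without TR4 but not without any other HS or TR array (0.72 to 1.0), nor without CL3 (0.88). COL4A6 was not called without HS2, HS4, TR1, TR3, TR4 or CL3 (-0.71 to -0.53), and its HS4 value was not above background. The fourth was ITGA8, described with the genes whose TR and CL levels differed.

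MYH11, the myosin heavy chain of smooth muscle, read 10.26, 11.63, 11.07 and 11.30 in HS, against 9.43, 8.99, 9.57 and 9.51 in TR and 9.62, 9.12, 11.16 and 9.24 in CL. The HS arrays lay above the TR arrays, and CL3 within the HS range. Its change was 1.69 ± 0.42 (SE; adjusted p = 0.0956) with 6 of 7 probes DE, and it was DE without HS1 but not without any other HS or TR array (1.50 to 1.75). MYH11 was the only DE gene of 14 smooth muscle genes (median 0.21), against 1.83% of all genes. The pattern of symbols that drew the striated muscle list brought it in there too, as the only DE gene of 16 (median 0.85). The mean of the striated list was 8.58, 11.27, 8.95 and 9.39 on the HS arrays, against 7.96 to 8.73 on the TR arrays and 8.51, 12.01, 8.82 and 8.62 on the CL arrays. HS2 and CL2 were thus the high arrays for muscle genes, and the part of muscle RNA in the MYH11 result was not tested. ACTC1, cardiac actin, followed those arrays, at 10.85 on HS2 and 15.57 on CL2, and was not DE (adjusted p = 0.345).

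None of 42 immune cell and interferon genes was DE, with a median of -0.16. EXFABP, a lipocalin that binds fatty acids and bacterial siderophores, read 13.65, 13.52, 14.02 and 14.16 in HS, against 11.99, 11.92, 12.86 and 12.36 in TR and 12.98, 11.45, 12.17 and 13.28 in CL. Its HS arrays were above all others (change 1.56 ± 0.36 SE, adjusted p = 0.0806, both probes DE), but leaving out HS3 (1.50), HS4 (1.45), TR1 (1.46), TR2 (1.43) or TR4 (1.58) ended it. LYG2, a goose-type lysozyme, changed by 1.63 (adjusted p = 0.0638, lost without HS3 at 1.47) with 2 of 4 TR arrays above background. ORM1, an acute phase glycoprotein, changed by 0.89 (adjusted p = 0.143), and only the fit without HS1 kept that call among the 12 that left out an array (0.58 to 1.02). Only 1 of the 2 probes of ORM1 had this sign, and the median over them was 0.28 without a call. LYG2 and ORM1 were chosen after their values were seen.

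DGAT2, which makes triglycerides and was chosen after its values were seen, changed by 1.44 (adjusted p = 0.0943), with HS arrays from 10.50 to 12.37 and TR arrays from 9.37 to 10.11. Leaving out HS3 or any 1 TR array ended the call of DGAT2 (1.32 to 1.56). Among 70 solute carriers 3 were higher, against 1.34% of all genes, and 67 were not DE (median 0.08). The higher genes were SLC24A2, SLC11A1 and SLC47A2, an exporter of organic cations. SLC47A2 read 12.03, 11.13, 11.82 and 11.92 in HS, against 10.03, 9.38, 10.23 and 10.92 in TR, without overlap. It changed by 1.59 ± 0.34 (SE; adjusted p = 0.0646) with all 3 probes DE, and held with each array left out. Of 38 genes of BMP and TGF-beta signalling 2 were higher, GDF10 (1.09 ± 0.23 SE, adjusted p = 0.0613, held with each array left out) and FSTL4 (1.04, adjusted p = 0.136). The call of FSTL4 was lost without HS3, HS4, any TR array, CL1 or CL3 (0.80 to 1.17). BMP4 was lower and 35 were not DE, with a list median of -0.09. The shares over all genes were 1.34% higher and 0.492% lower.

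In 15 genes the 95% interval of TR minus CL, not adjusted over genes, excluded 0. TR was above CL in 7 of them, ITGA8, TERC, PRLH, APOLD1, ARR3 and BMP4 among them, all lower in HS vs. TR. ITGA8, TERC and PRLH were also DE in TR vs. CL (adjusted p = 0.139, 0.143 and 0.124 in that order). ITGA8, an integrin alpha chain, read 5.66, 5.40, 5.95 and 5.89 in HS, against 7.80, 7.35, 7.78 and 7.01 in TR and 6.03, 6.81, 5.83 and 5.93 in CL. The TR arrays lay above all others, with HS minus TR at -1.76 ± 0.24 (SE; adjusted p = 0.0113) and TR minus CL at 1.33 (interval 0.80 to 1.86), and the HS vs. TR call held under every setting. The paper's table of PCR genes gives ITGA8 as lower in HS vs. TR, as here. It also gives ITGA8 as lower in TR vs. CL, the opposite sign, where its PCR change was not marked significant. TERC, the RNA of telomerase, read 7.21, 7.03, 6.98 and 6.84 in HS, against 8.59, 8.34, 7.96 and 7.71 in TR and 7.46, 7.07, 6.95 and 6.63 in CL. HS and CL overlapped for TERC and TR lay above both (HS minus TR -1.13 ± 0.21 SE, adjusted p = 0.0383).

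PRLH encodes prolactin-releasing peptide, which reduces feeding in mammals. It read 10.26, 10.08, 9.81 and 10.05 in HS, against 10.69, 11.36, 10.81 and 10.27 in TR and 9.82, 9.73, 9.72 and 9.35 in CL. TR was highest and CL lowest, with TR4 and HS1 almost equal. HS minus TR was -0.73 (adjusted p = 0.121) and TR minus CL 1.13 (interval 0.69 to 1.57). The HS vs. TR call of PRLH held without HS1, TR4, CL1, CL2 or CL4 and was lost without the others (-0.76 to -0.54). APOLD1, an endothelial gene, changed by -1.16 (adjusted p = 0.0582, held with each array left out), with TR4 within the range of CL. BMP4 changed by -0.67 (adjusted p = 0.109), and was not DE without TR1, its highest TR array (-0.48), or without HS2, HS3, HS4, TR3 or TR4 (-0.74 to -0.59). The cone arrestin ARR3 changed by -0.76 (adjusted p = 0.141) with 2 of 4 HS arrays above background, and kept its call only when HS1 was left out (-0.87 to -0.54 over the others).

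TR was below CL in the other 8, BKJ, PTGER2, DRD2, SSTR2, SIX2, ZPBP2, NET1 and CD200, all higher in HS vs. TR. PTGER2, a receptor of prostaglandin E2, the mediator of fever, read 12.34, 11.93, 11.59 and 11.56 in HS, against 10.89, 11.11, 10.69 and 10.74 in TR and 11.97, 12.30, 11.70 and 11.10 in CL. HS and CL overlapped almost wholly (HS minus CL 0.09) and TR lay below HS by 1.0 (adjusted p = 0.0932). Only 1 of its 2 probes had this sign, and the call was lost without TR1 (1.01), TR3 (0.94) or TR4 (0.96). PTGER2 and LITAF were the only DE genes of 15 prostaglandin and fever cytokine genes, against 1.83% of all genes, with a list median of -0.04. PTGS2, the inducible cyclooxygenase, was not DE (0.25, adjusted p = 0.39). SIX2, a homeobox gene, changed by 0.89 (adjusted p = 0.033) and CD200, a ligand that restrains microglia, by 0.59 (adjusted p = 0.0337). BKJ changed by 1.25 (adjusted p = 0.0873) on 1 of its 2 probes and by -0.12 on the other, ZPBP2, a zona pellucida binding protein, by 0.62 (adjusted p = 0.0555) and NET1, a guanine nucleotide exchange factor, by 0.60 (adjusted p = 0.0794). SIX2 held with each array left out, CD200 was lost without HS2 (0.54), HS4 (0.56) or TR1 (0.57), ZPBP2 without HS1 (0.58) or HS2 (0.56), NET1 without HS4 or TR2 to TR4 (0.48 to 0.59) and BKJ without HS2, HS3 or any TR array (1.07 to 1.32). These 5 genes were chosen after their values were seen.

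**Figure D4:**
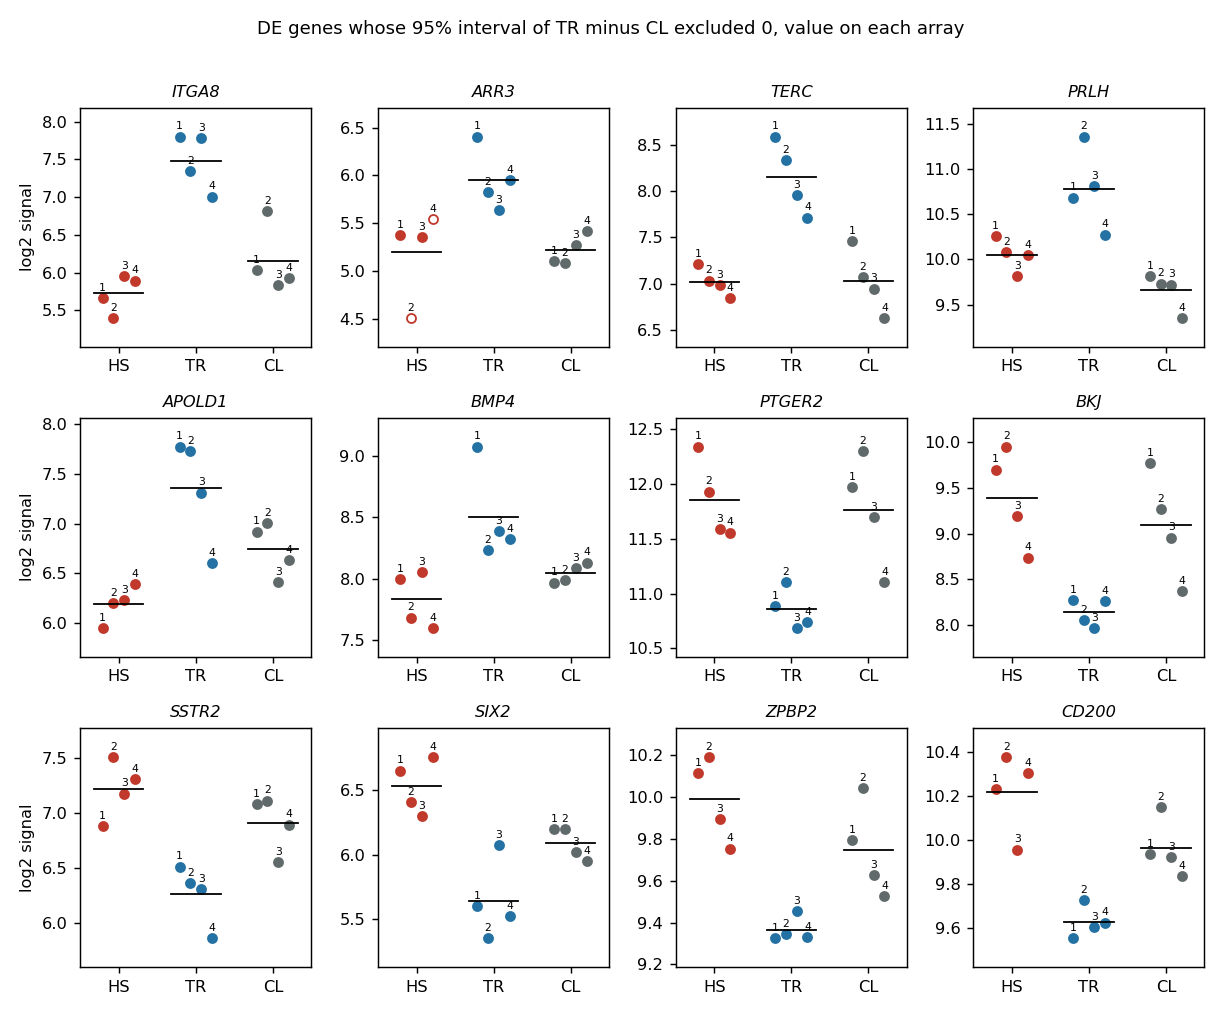
Log2 signal on each array of 12 of the 15 DE genes whose TR minus CL interval excluded 0, with the groups in the order HS, TR and CL. In the first 6 panels the TR mean is the highest of the 3 and in the last 6 the lowest, and the HS and CL points of TERC, PTGER2, BKJ and SSTR2 share much of their range.

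With 1 probe per gene, no gene of the heat shock families was DE between heated and recovered birds, against 1.83% of all genes. None of 7 HSP70 genes was DE, with changes between -0.12 and 0.18 and a median of 0.04, and the 95% interval of HS minus TR lay inside the 1.5-fold band in all 7, as it did in 69.5% of all genes. HSPA8, the constitutive HSP70, changed by 0.18, HSPA5 of the endoplasmic reticulum by -0.12 and HSPH1, the HSP110 exchange factor, by 0.18. None of 7 HSP90 genes and heat shock factors was DE (median -0.07, 5 of 7 inside the band), with HSP90AA1 at -0.07 and HSP90AB1 at -0.16. HSP90AB1 read 11.81 to 12.15 in HS and 11.99 to 12.27 in TR, against 12.20 to 12.84 in CL, and 1 of its 4 probes was DE and lower in HS. None of 15 HSP40 genes was DE (changes between -0.16 and 0.25, 13 of 15 inside the band), and DNAJC13 changed by -0.15 (adjusted p = 0.409). The counts were likewise 0 of 22 for co-chaperones and chaperonins (18 inside the band) and 0 of 11 for folding enzymes of the endoplasmic reticulum (9 inside). The paper reports DNAJC13 as higher and HSPCB, here HSP90AB1, as lower in HS vs. TR, by array and by PCR. In the fit here DNAJC13 had the opposite sign and HSP90AB1 the same sign, neither of them DE by its brightest probe.

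Lists of basic cell functions gave no call. The interval lay inside the band in 32 of 33 ribosomal protein genes, 27 of 29 translation factors, 18 of 18 respiratory chain genes, 37 of 42 proteasome and ubiquitin genes and 53 of 56 splicing and cold-inducible RNA-binding genes, with no DE gene in any of these lists. The symbol pattern of the ribosomal list also takes in ribosomal S6 kinases. Clock genes (0 of 15 DE, 11 inside), TRP channels (0 of 6 DE, 3 inside) and 18 genes of cholesterol and fatty acid synthesis (0 DE, 15 inside) gave no call. The heat-sensing channels TRPV1 and TRPV4 changed by 0.25 and -0.02.

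Antioxidant genes (0 of 25 DE, 15 inside) and fatty acid fuel genes (0 of 27 DE, 18 inside) held wider members. HMOX1, which breaks down heme, changed by -0.56 (adjusted p = 0.244), and PDK4, which holds pyruvate back from oxidation, by 0.67 (adjusted p = 0.29), neither DE. PDK4 read 9.99, 10.38, 10.22 and 10.82 in HS, against 8.92, 10.25, 10.16 and 9.38 in TR and 9.32, 8.63, 8.93 and 9.29 in CL. TR2 and TR3 lay within the HS range and TR1 and TR4 nearer to CL. CROT, the carnitine octanoyltransferase of peroxisomes, fell into separate levels, at 12.10, 12.20, 13.06 and 12.34 in HS, against 11.72, 6.98, 6.86 and 7.04 in TR and 11.96, 6.19, 11.96 and 12.81 in CL. It was low in 3 TR birds and in CL2 and was not DE (4.27, adjusted p = 0.181).

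**Figure D5:**
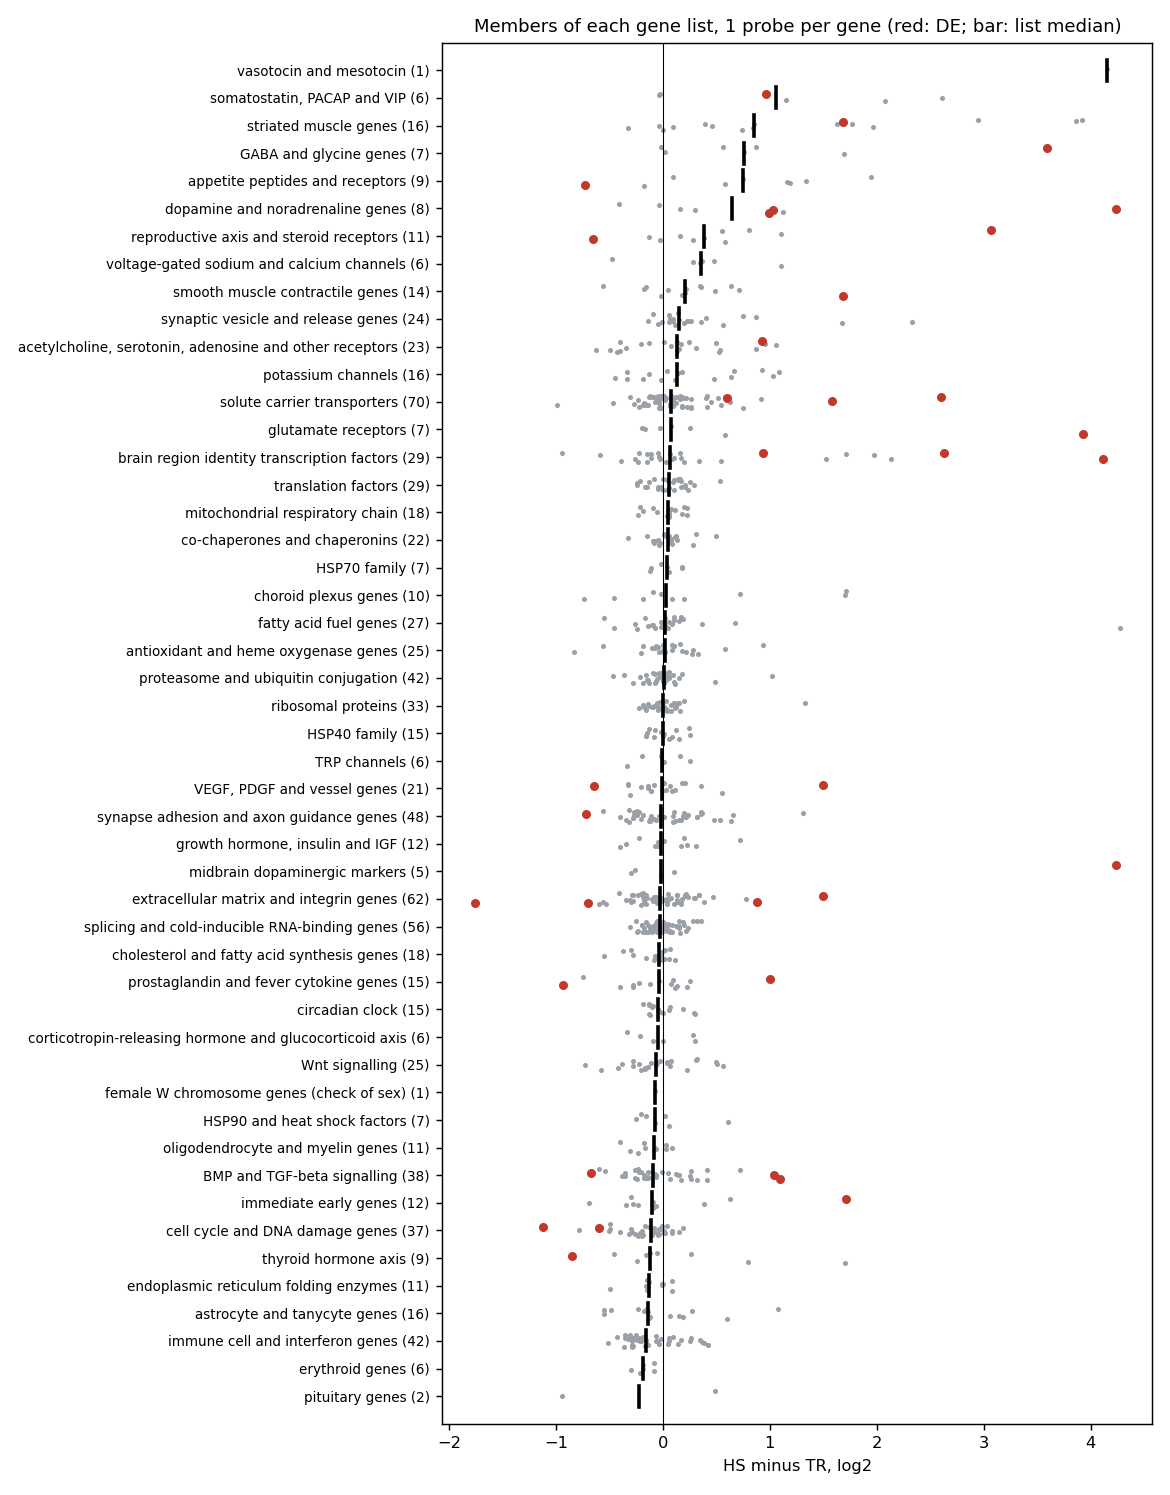
Each row is a gene list with its number of measured genes in brackets, each point the log2 change of HS minus TR of a member, red for DE genes, and the black bar the list median. Peptide, transmitter and muscle lists at the top spread over several log2 units, while most members of the chaperone, ribosomal, respiratory chain and splicing lists stay close to 0.

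Markers of other cell types bear on how alike the tissue pieces were. Of 11 oligodendrocyte genes none was DE (median -0.09), and their mean signal was between 15.52 and 15.84 in HS, against 15.79 to 15.91 in TR and 15.80 to 15.88 in CL, with HS4 the lowest array. None of 16 astrocyte and tanycyte genes was DE (median -0.14), with means between 13.97 and 14.20 in HS, against 14.02 to 14.13 in TR. Choroid plexus genes (0 of 10 DE) had TTR, the carrier of thyroxine made by that tissue, at 12.91 on HS2 and between 7.83 and 10.38 on the other 7 HS and TR arrays. Red cell genes (0 of 6 DE, median -0.19) and PITX1 and POU1F1, the 2 transcription factors measured from the pituitary list, gave no call. No pituitary hormone gene was among the measured members. What these differences add to the DE genes was not tested.

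Of 625 DE probes that met the rule on background, 493 carry no gene name here. A_87_P022015 was among the largest, with 13.57, 13.47, 14.76 and 15.31 in HS, against 7.15, 12.29, 9.21 and 8.36 in TR and 13.45, 7.88, 12.02 and 10.84 in CL (change 5.02, adjusted p = 0.0917). TR2 was again the highest TR array and CL1 the highest CL array. In the other direction A_87_P035026 read 3.76, 5.01, 4.18 and 6.42 in HS, with 2 of 4 arrays above background, against 9.46, 9.50, 9.43 and 9.16 in TR and 4.44 to 10.73 in CL (change -4.55, adjusted p = 0.0785). HS lay below TR without overlap, while CL spanned both. A_87_P301643 read 5.30, 5.42, 5.93 and 6.23 in HS, against 7.46, 8.16, 7.65 and 7.76 in TR and 5.93 to 7.21 in CL. It was lower in HS without overlap (change -2.04 ± 0.30 SE, adjusted p = 0.0216), and TR lay above CL by 1.21 (interval 0.54 to 1.87).

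From the study's paper 41 gene names were taken, a list that is not complete, since PDGFB, STAT5B and FABP4 are named there too. Of the 41, 30 were measured and 10 were DE in HS vs. TR, namely TH, GCH1, DRD2, VEGFD, MYH11, EXFABP, LPAR4, ITGA8, APOLD1 and BMP4. Over all genes 1.83% were DE. The paper drew these names from all of its group comparisons, so not every gene without a call here differs from the paper. It lists CROT and ACTC1 as raised, without naming the comparison. In HS vs. TR they changed here by 4.27 and 3.92, neither DE, with TR2 the only TR array above background for ACTC1. Its table of PCR genes marks no change in HS vs. TR for HMOX1, PDK4, SDC1 and SFRP1. Nor does it mark one for GPR23, here LPAR4, which was DE here. The paper's text, unlike its table, names GPR23 as DE in that comparison. The study chose the genes it names on the same arrays, so the count is not independent evidence. Its PCR on samples of the same birds also gave TH and GCH1 as higher in HS than in TR. LPAR4, a receptor of lysophosphatidic acid, changed by 0.67 (adjusted p = 0.14) with overlapping arrays, and only leaving out HS1 or TR3 kept its call (0.52 to 0.83 over the 12). ACSBG2, an acyl-CoA synthetase, did not overlap between HS and TR but changed by -0.46, below the fold limit. BMP3 (0.41), BMP7 (0.15), SFRP1 (0.31), SDC1 (-0.41), INSIG1 (-0.29), FABP7 (-0.55), EMP1 (-0.66), MYH7 (-0.04), UCP3 (-0.25), PLA1A (-0.10), SMAD7B (-0.26) and VTG2 (-0.12) were not DE. The remaining 11 were not measured here.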

How the data were processed

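The authors scanned the 1-colour arrays and deposited, for each spot, the processed intensity of Feature Extraction 10.7.3.1 (background-subtracted, not scaled between arrays) with marks for spots above background and outliers. The authors also deposited a log2 table, quantile-normalized, used here only as an alternative: 65.6% of its 43606 entries matched the feature of their own number, and 99.9% one up to 12 numbers away (RMS difference under 0.1).

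Intensities of 43603 non-control probes were taken to log2 and quantile-normalized, 420 values from outlier spots were left out and spots of a probe averaged. A linear model of the 3 groups was fitted to the 12 arrays in limma 3.58.1 (R 4.3.3; lmFit, eBayes) and p-values were adjusted by Benjamini-Hochberg over all 34920 probes tested in HS vs. TR. All adjusted p-values and SEs come from that fit unless another is named, and the p-values measure the spread between birds. Limits of p, FDR and fold were those of the methods. Intervals are limma's 95% intervals. The step was tested on simulated data. A bound on a fold uses the lowest signal above background on each array. Probes were named through RefSeq accessions of the GRCg7b table (10185 probes) and, for 10 more, accessions in the paper's tables. No sequences are shown, since the files used here hold none.

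Genes, lists and members were chosen with earlier results of these data known. Named genes are the 12 largest non-overlapping changes in each direction, up to 6 DE genes a list and direction, and 41 genes taken from the paper; others are said to be chosen after their values were seen, or are list members. Of 50 lists, 49 had members and 20 a DE gene. A few genes are not reported here. Plots were drawn with matplotlib 3.10.9.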

Additional observations from a re-analysis of the deposited data

Results flagged for a closer look

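In 9 of the 154 sets of 4 HS or 4 TR arrays examined over DE genes and AVP, the highest or lowest array lay far from the other 3 by Dixon's criterion for 4 values, which chance gives in about 1 of 20 sets. In HS, HS1 was low for NUDT19 (10.9, against 11.2 to 11.3 on the other HS arrays), and HS2 was low for VEGFD (11.4, against 12.1). In TR, TR2 was high for TH (3.99, against 2.37 to 2.41), although no TR array was above background there, and low for COL4A6 (6.45, against 6.85 to 6.92) and MEOX2 (10.1, against 10.4). TR3 was low for MCM5 (6.01, against 6.23 to 6.24) and ORM1 (9.08, against 9.56 to 9.66), and high for SNX10 (8.98, against 8.56 to 8.62) and ZPBP2 (9.46, against 9.33 to 9.34). TR2 and TR3 gave 7 of the 9, and the cause was not tested.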

How the results depend on the processing

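The count of DE genes in HS vs. TR was 78 (57 higher, 21 lower) and that of DE probes 647. With normexp background correction it was 45 genes (37 higher, 8 lower) and 306 probes, with FDR under 0.05 16 genes (13 higher, 3 lower) and 158 probes, and by the methods' t-test 25 genes (20 higher, 5 lower) and 256 probes. With array weights it was 118 genes (33 lower) and 1065 probes. The lower genes numbered 35 where dim probes were not filtered out and 14 where a probe had to be above background on all 8 arrays. Scaling to the 75th percentile gave 84 genes with 70 of the 78 kept, only the 8 HS and TR arrays 55 with 51 kept, outlier spots kept 79 with all 78 kept, the authors' table the same number with all kept, and the median over a gene's probes 57, without BMP4, FMOD, HAPLN1, NET1, SLC11A1 and SOUL among others. SGCB turned direction by the median over its probes (-0.10 in place of 0.69), and no other call was reversed in any of the 24 settings.

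Leaving out 1 array gave between 263 and 1230 DE probes and between 30 and 140 DE genes, with 21 to 100 higher and 9 to 40 lower. The highest count came without HS1 and the lowest without TR4, and the count was 35 without HS3 or TR3, 36 without HS4 or TR1, 43 without TR2 and 50 without CL3. The lower genes numbered 11 without HS2. In 17 genes the call held with each array left out, and in 8, BLEC1, DRD2, ITGA8, PRKCH, SSTR2, TERC, TPRA1 and VEGFD, under all 24 settings that apply. A replicate block gave 64 DE genes and 521 DE probes, with 57 of the 78 kept. Deviations of same-numbered HS and TR arrays correlated between -0.03 and 0.17, others between -0.14 and 0.12, and 1 of 4 HS arrays correlated best with its own number. With 4 arrays a group these values cannot decide whether equal numbers pair birds.

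Each group held 4 birds on a slide of its own. Median signal over background was between 11.8 and 17.3 an array. For TH in TR and CRYBA4 in HS there is only a bound, and DLX6, GRIN1, LYG2 and NPFFR1 were above background on 1 or 2 TR arrays. GCH1 was not above background on TR4, and CENPI, COL4A6 and MCM5 were not on HS4. RXRG was not above background on HS3 or HS4, nor ARR3 on HS2 or HS4.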
